A study of Danio rerio with 16 samples.

Results

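The digestive enzymes of the exocrine pancreas were followed in whole zebrafish larvae. The starting gene was ctrl, the chymotrypsin-like protease gene (ENSDARG00000068680), chosen by its measured values, a large difference between cortisol- and vehicle-treated VBA+ larvae, and 9 other enzyme symbols were joined to it by name: ctrb1, prss1, cpa1, cpa5, cpb1, ela2, ela2l, ela3l and cel.2. Of these 10 symbols, 8 were matched to 1 gene identifier each among the 22994 genes of the table. The symbols cpa5 and cel.2 matched no identifier by name, but 3 further rows carried the human symbols CPA1 or CEL and are given beside the others as the CPA1 copy (ENSDARG00000021339), CEL copy 1 (ENSDARG00000017490) and CEL copy 2 (ENSDARG00000029822), without assigning either symbol to one of them. All counts of members below are over the 8 matched genes.

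Acinar cells of the pancreas make digestive enzymes in large amounts, store most of them as inactive zymogens in granules and release them into the gut, where trypsin activates the other proteases. The enzyme genes are the classical readout of the acinar state and are switched on together during larval development by pancreatic transcription factors such as ptf1a. Glucocorticoids such as cortisol act largely through the glucocorticoid receptor (GR), encoded by nr3c1, and in rat AR42J cells, an acinar tumour line, a synthetic glucocorticoid raises amylase RNA.

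RNA was sequenced from 16 pools of 8 larvae at 5 dpf, 4 pools in each of 4 groups: VBA- cortisol, VBA- vehicle, VBA+ cortisol and VBA+ vehicle. VBA- larvae were homozygous for GR369-, a frameshift deletion in nr3c1 that was introduced into the AB strain, and were recognised by their failure to adapt pigmentation to a pale background (visual background adaptation, VBA). VBA+ larvae were their wild type and heterozygous siblings, so that a VBA+ pool mixed both genotypes. Cortisol was given at 1 uM in the medium from the first hours after fertilization, and vehicle larvae received DMSO. The pools of a condition were taken from 1 dish, and dishes were emptied in turn, so that dish, order of collection and condition cannot be told apart and p-values measure the spread between pools of a dish.

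Values are given as log2(normalised count + 0.1), called log2 values here. All 16 libraries had been forced to 1 shared distribution of counts (14653434 normalised counts in each), so their depth is unknown and a value places a gene within its own library. Within groups, libraries correlated at r = 0.8625 to 0.991 over 13772 genes with a mean of at least 75 normalised counts. In whole larvae, fewer acinar cells and less enzyme RNA per cell cannot be told apart. As a check of the labels, nr3c1 had log2 values of 7.83 to 9.21 in VBA- cortisol libraries, against 9.39 to 9.59 in VBA+ cortisol libraries, and of 8.42 to 9.33 in VBA- vehicle libraries, against 9.18 to 9.52 in VBA+ vehicle libraries. The receptor RNA did not overlap between genotypes in cortisol and overlapped in vehicle, and neither difference passed the limma test over all genes (adjusted p = 0.514 in cortisol and 0.276 in vehicle).

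In the RefSeq annotation of zebrafish assembly GRCz12tu, which is not the build of the files and was used for names and neighbours only, ctrb1 is a synonym of ctrb.1 and sits in a row with ctrb.2 and ctrb.3, ela2 is the neighbour of ela2l, cpa1 of cpa5, and cel.1 of cel.2. Reads from similar copies can be split between them in the authors' estimated counts, which may affect ctrb1, ela2, ela2l, cpa1 and the CPA1 and CEL copies. No sequences were compared, so the similarity of these copies was not tested. Values of ctrl, prss1, cpb1 and ela3l may be affected too.

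**Figure D1:**
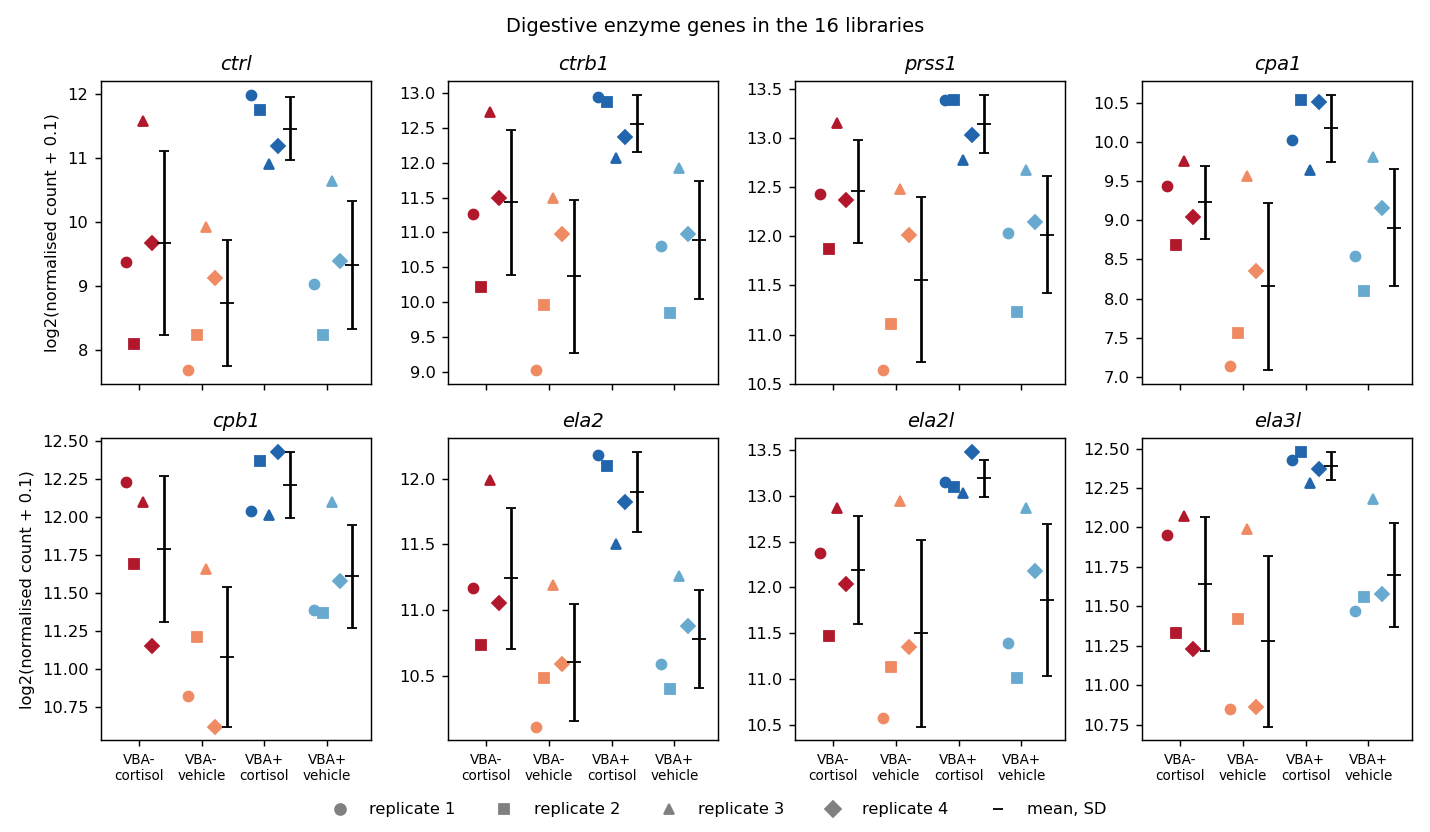
Each panel plots 1 enzyme gene as log2(normalised count + 0.1) in the 16 libraries, with groups along the x axis, marker shapes for the replicate numbers, and the mean and SD (n = 4) to the right of each group. Replicate 3 is the highest library for all 8 genes in both vehicle groups and the lowest for all 8 in VBA+ cortisol, where ctrl lies between 10.91 and 11.99.

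The chymotrypsins, which cut proteins after large aromatic residues, spread widely between libraries. In VBA- larvae, ctrl had log2 values of 9.37, 8.09, 11.58 and 9.67 in the cortisol libraries, against 7.69, 8.22, 9.92 and 9.13 in the vehicle libraries. In VBA+ larvae it had 11.99, 11.75, 10.91 and 11.19 with cortisol, against 9.03, 8.23, 10.64 and 9.39 with vehicle. The VBA- groups overlapped widely, with 1 cortisol library (replicate 3) inside the range of VBA+ cortisol and the other 3 at vehicle levels, whereas the lowest VBA+ cortisol library lay just above the highest VBA+ vehicle library. The means were 9.68 ± 1.44 in VBA- cortisol, 8.74 ± 0.99 in VBA- vehicle, 11.46 ± 0.50 in VBA+ cortisol and 9.32 ± 1.00 in VBA+ vehicle (SD, n = 4 each). The related chymotrypsinogen gene ctrb1 had 11.26, 10.21, 12.73 and 11.50 in VBA- cortisol libraries, against 9.03, 9.95, 11.50 and 10.98 in VBA- vehicle libraries. With VBA+ larvae the values were 12.94, 12.87, 12.07 and 12.37 in cortisol and 10.80, 9.85, 11.92 and 10.98 in vehicle. The order of the libraries was close to that of ctrl, with VBA- cortisol replicate 3 again far above the other 3 of its group.

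Trypsin, the protease that starts the activation of the other zymogens, is encoded by prss1. It had log2 values of 12.43, 11.87, 13.16 and 12.37 in VBA- cortisol libraries, against 10.64, 11.11, 12.48 and 12.01 in VBA- vehicle libraries. In VBA+ larvae the cortisol libraries had 13.39, 13.39, 12.78 and 13.03, and the vehicle libraries 12.04, 11.23, 12.68 and 12.15. The VBA+ groups did not overlap, by a small margin at replicate 3, and the VBA- groups did overlap.

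The elastases, a further group of proteases, comprised ela2, ela2l and ela3l, and RefSeq gives ctrc, the name of chymotrypsin C, as a synonym of ela2l. In VBA- larvae, ela2 had 11.17, 10.73, 11.99 and 11.05 with cortisol, against 10.11, 10.48, 11.19 and 10.59 with vehicle. In VBA+ larvae it had 12.18, 12.10, 11.50 and 11.82 with cortisol, against 10.59, 10.40, 11.26 and 10.88 with vehicle. For ela2, 3 of the 4 VBA- cortisol libraries therefore lay within the range of VBA- vehicle, while the VBA+ groups were separate. The values of ela2l were 12.37, 11.47, 12.87 and 12.04 in VBA- cortisol and 10.57, 11.13, 12.94 and 11.35 in VBA- vehicle. In VBA+ larvae ela2l had 13.15, 13.09, 13.03 and 13.48 with cortisol, against 11.39, 11.01, 12.87 and 12.18 with vehicle. All 4 VBA+ cortisol libraries of ela2l exceeded all 12 other libraries, although 3 of those, replicate 3 of VBA- cortisol and of both vehicle groups, came close. For ela3l, the values were 11.95, 11.33, 12.07 and 11.23 in VBA- cortisol, against 10.85, 11.42, 11.99 and 10.86 in VBA- vehicle. VBA+ libraries had 12.43, 12.48, 12.28 and 12.37 with cortisol and 11.47, 11.56, 12.18 and 11.58 with vehicle. The 4 VBA+ cortisol libraries of ela3l were the tightest group of any member (SD 0.089) and again exceeded the 12 others.

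The carboxypeptidases take single residues from the carboxyl end of peptides, cpa1 those that are aromatic or aliphatic and cpb1 those that are basic. In VBA- larvae, cpa1 had 9.44, 8.68, 9.76 and 9.04 with cortisol, against 7.14, 7.56, 9.57 and 8.35 with vehicle. In VBA+ larvae it had 10.03, 10.54, 9.65 and 10.52 with cortisol, against 8.54, 8.10, 9.82 and 9.16 with vehicle. A single vehicle library, replicate 3, kept the VBA+ groups of cpa1 from being separate. The values of cpb1 were 12.23, 11.69, 12.10 and 11.15 in VBA- cortisol, against 10.82, 11.21, 11.66 and 10.62 in VBA- vehicle. In VBA+ larvae cpb1 had 12.04, 12.37, 12.01 and 12.43 with cortisol, against 11.39, 11.37, 12.10 and 11.58 with vehicle. For cpb1 the VBA- cortisol group had replicate 1 as its highest library, the only group of any of the 8 genes outside VBA+ cortisol in which replicate 3 was not the highest.

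The CPA1 copy had 11.69, 10.58, 13.93 and 12.28 in VBA- cortisol libraries, against 9.51, 9.94, 12.18 and 11.53 in VBA- vehicle libraries. In VBA+ larvae it had 13.86, 13.86, 12.78 and 13.16 with cortisol, against 10.91, 10.05, 12.73 and 11.66 with vehicle. This row resembled ctrl in its library order, with VBA- cortisol replicate 3 as the highest of all 16. CEL is the bile-salt-activated lipase that splits cholesterol esters and other lipids. In VBA- larvae, CEL copy 1 ranged from 8.10 to 10.32 with cortisol, against 7.28 to 9.38 with vehicle, and CEL copy 2 from 4.26 to 7.54 with cortisol, against 3.82 to 6.43 with vehicle. In VBA+ larvae, CEL copy 1 ranged from 9.86 to 10.85 with cortisol, against 7.91 to 9.67 with vehicle, and CEL copy 2 from 6.94 to 7.95 with cortisol, against 5.25 to 6.91 with vehicle. Both CEL rows were separate between the VBA+ groups and overlapped between the VBA- groups.

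Averaged over the 8 members, the log2 value was 11.28, 10.51, 12.03 and 11.01 in the VBA- cortisol libraries, against 9.60, 10.14, 11.41 and 10.49 in the VBA- vehicle libraries. The VBA+ libraries averaged 12.27, 12.32, 11.78 and 12.15 with cortisol, against 10.66, 10.22, 11.68 and 10.99 with vehicle. VBA+ cortisol was thus both the highest group and the narrowest (12.13 ± 0.25), followed by VBA- cortisol (11.21 ± 0.64), VBA+ vehicle (10.89 ± 0.62) and VBA- vehicle (10.41 ± 0.76, SD, n = 4 each). The middle pair differed by less than their SDs. Over all tested genes, the same average was 6.87 to 6.89 in every library, which the shared distribution of counts nearly fixes beforehand.

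The effect of cortisol in larvae without a functional receptor used no library of the contrast that picked ctrl. All 8 enzymes had a higher mean in VBA- cortisol than in VBA- vehicle libraries, by 0.37 (ela3l) to 1.07 (cpa1) on the log2 scale, but none was called. A gene was called when limma gave an adjusted p of at most 0.05 over 21686 genes, together with an absolute log2 difference of at least 0.5, an SE under 1 and a mean of at least 75 normalised counts. No gene of the table was called in this comparison either (0%), while 389 genes had an unadjusted p under 0.05, and of the members cpb1 alone was among those. The limma adjusted p was 1 for all 8 members. The difference was 0.94 ± 0.71 for ctrl (SE, 95% interval -0.66 to 2.53), 1.06 ± 0.61 for ctrb1, 0.90 ± 0.41 for prss1 and 0.72 ± 0.28 for cpb1. The interval of cpb1 ran from 0.09 to 1.35, and those of the other 7 enclosed 0. A difference of at least 0.5 was found in 7 of 8 members, against 4.86% of all tested genes, with medians of 0.81 over the members and -0.01 over all tested genes. None of the 8 was separate between the groups, as 0.682% of genes were in this direction. The 3 further rows had differences of 1.33 ± 0.76 (CPA1 copy), 0.84 ± 0.53 (CEL copy 1) and 1.14 ± 0.76 (CEL copy 2), and none was called. Without VBA- cortisol replicate 3 the median of the members was 0.54, and without VBA- vehicle replicate 3 it was 1.19.

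**Figure D2:**
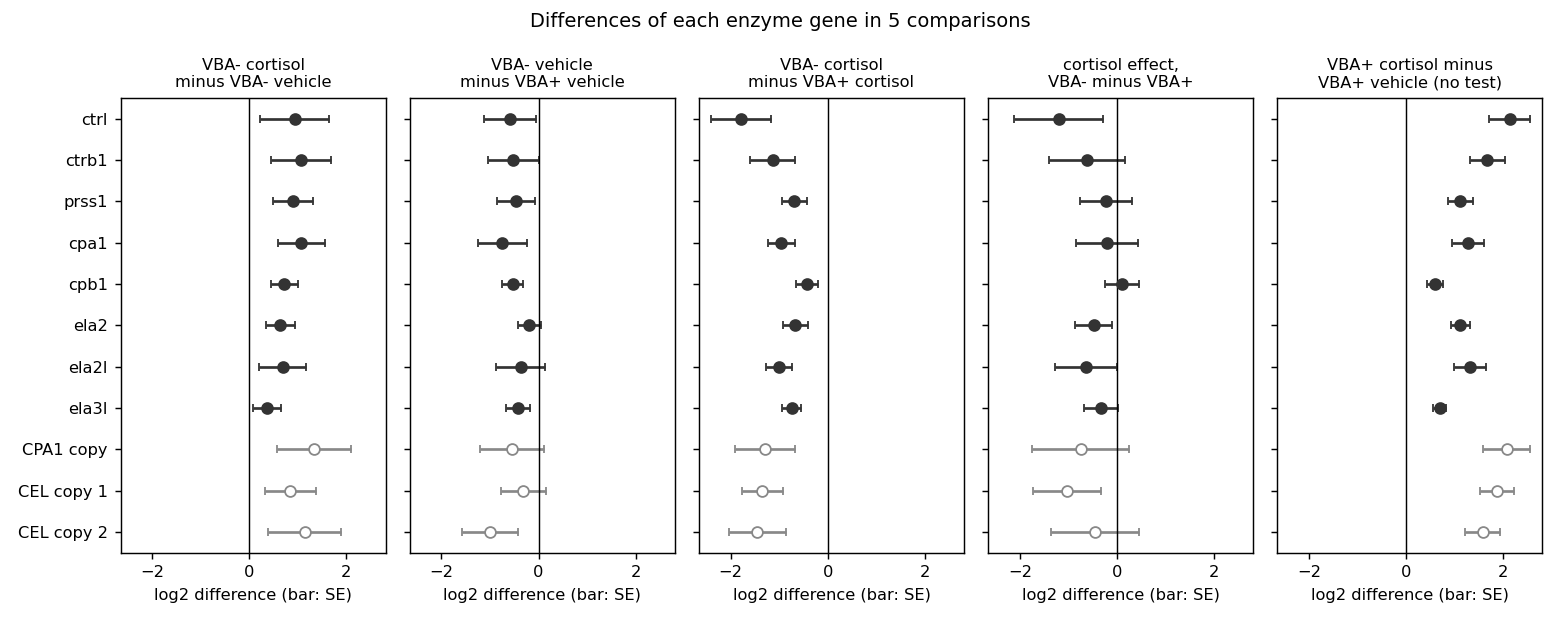
Each panel gives 1 comparison, with the log2 difference of each gene on the x axis (point) and its SE (bar), for the 8 members (filled) and the 3 rows listed as CPA1 or CEL (open). All 8 members lie right of 0 for cortisol in VBA- larvae, with ctrl at 0.94, and left of 0 in both comparisons of VBA- with VBA+ larvae.

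The comparison of genotypes without cortisol asked what loss of the receptor does to basal enzyme RNA. Its VBA+ vehicle libraries belong to the contrast that picked ctrl, so it is not independent of that choice. All 8 members had lower means in VBA- vehicle than in VBA+ vehicle libraries, by -0.19 (ela2) to -0.75 (cpa1), and none was called, where 0.0646% of all genes were called lower. The median was -0.49 over the members and -0.02 over all tested genes, and 4 of 8 members differed by -0.5 or less, as did 6.17% of all tested genes. Only cpb1 had an unadjusted p under 0.05 (difference -0.53 ± 0.22, limma adjusted p = 0.332), against 3032 such genes in all. The chymotrypsin genes had differences of -0.58 ± 0.54 (ctrl, interval -1.78 to 0.61) and -0.52 ± 0.53 (ctrb1). Replicates of the same number deviated together in these 2 groups, and a fit with the replicate number as a block raised the calls over all genes to 195, against 51 without it, but still called none of the 8 members (limma adjusted p from 0.0753 for cpb1 to 0.39 for ela2). Without VBA- vehicle replicate 1 the median was -0.19, and without VBA- vehicle replicate 3 it was -0.81.

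The same genotypes were then compared with cortisol present in both. Means were lower in VBA- than in VBA+ cortisol libraries for all 8, by -0.42 ± 0.23 for cpb1, -0.67 ± 0.26 for ela2, -0.69 ± 0.26 for prss1, -0.75 ± 0.19 for ela3l, -0.95 ± 0.27 for cpa1, -1.002 ± 0.264 for ela2l, -1.14 ± 0.46 for ctrb1 and -1.78 ± 0.62 for ctrl. None was called (limma adjusted p = 0.495 to 0.591), and neither was any other gene (0%). An unadjusted p under 0.05 was found for 7 of 8 members, all but cpb1, and for 1701 of all 21686 genes. The groups did not overlap for ela2l and ela3l, as for 1.76% of all tested genes in this direction. A difference of -0.5 or less was seen in 7 of 8 members and in 11.1% of all tested genes, and the median was -0.85 over the members against 0.00193 over all tested genes. The median of the members was -1.21 in replicates 1 and 2 and -0.51 in replicates 3 and 4, with 0 of 8 above 0 in both. The VBA+ cortisol libraries used here are also those that made ctrl stand out, so this comparison and the interaction are not independent of how ctrl was picked.

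Whether cortisol acted differently on the 2 genotypes was tested as an interaction over all 16 libraries. For ctrl the cortisol difference was smaller in VBA- than in VBA+ larvae by -1.20 ± 0.91 (interval -3.13 to 0.74, limma adjusted p = 0.726). The values of the other members ran from -0.64 ± 0.64 (ela2l) to 0.11 ± 0.35 (cpb1), with a median over the 8 of -0.40 against 0.00714 over all tested genes. None was called, none had an unadjusted p under 0.05, and 1 gene of the table was called (0.00461%). A dependence of the enzyme response on the receptor was therefore not detectable at this spread, and the interval of each member enclosed 0. The sign of cpb1 turned to -0.02 without replicate 3 of every group.

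In VBA+ larvae, the contrast that picked ctrl, the values are given as a description. The log2 difference of VBA+ cortisol from VBA+ vehicle was 2.14 ± 0.43 for ctrl (SE, a 4.4-fold difference), 1.68 ± 0.36 for ctrb1, 1.32 ± 0.33 for ela2l, 1.28 ± 0.33 for cpa1, 1.12 ± 0.26 for prss1, 1.12 ± 0.19 for ela2, 0.69 ± 0.14 for ela3l and 0.60 ± 0.16 for cpb1. All 8 members met the criteria of a call, where 3.6% of all genes did in this direction, and all 3 of the further rows did (1.58 to 2.07). As ctrl was chosen on this contrast, nothing is read from that count. The groups did not overlap for 6 of 8, all but cpa1 and cpb1, against 8.44% of all tested genes. The calls rested on several libraries: without VBA+ cortisol replicate 1, VBA+ cortisol replicate 2 or VBA+ vehicle replicate 1 just 1 member was called in each case, and 4 were called without VBA+ vehicle replicate 2. With 1 library left out the median difference ran from 1.00 to 1.46. The median difference was 1.83 in replicates 1 and 2 and 0.595 in replicates 3 and 4, with all 8 members above 0 in both. Replicate numbers do not pair the libraries here: deviations of same-numbered libraries correlated at -0.344 to -0.0938. Nothing is therefore read from this split. A fit on all 16 libraries, which shares 1 estimate of the spread among the 4 groups, called 0 of 8 and 21 genes of the table, against 1783 in the fit on the 8 VBA+ libraries.

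Most of the enzymes deviated from their group means along with ctrl over all 16 libraries, which is apart from the group differences that picked ctrl. After each group's mean was taken off, r with ctrl over the 16 libraries was 0.974 for ctrb1, 0.961 for ela2, 0.927 for prss1, 0.837 for ela2l, 0.815 for cpa1, 0.679 for ela3l and 0.474 for cpb1. Spearman's rho was 0.976 for ctrb1, 0.941 for ela2, 0.948 for prss1, 0.835 for ela2l, 0.850 for cpa1, 0.544 for ela3l and 0.441 for cpb1. With libraries permuted within groups (100000 draws, 2-sided) and p-values adjusted over 13760 genes, the first 5 genes passed at adjusted permutation p = 0.029 to 0.03 for r and 0.022 to 0.024 for rho. The smallest of them before adjustment was 2e-05. Same-numbered vehicle libraries of the 2 genotypes deviated together (r = 0.212 to 0.309), so these p-values may be too small. That link was read from the data, and the study's methods do not describe such pairs. Permuting both vehicle groups alike was an alternative chosen after seeing the data. The adjusted permutation p of the same 5 genes was then 0.069 for r and 0.057 for rho. None passed, and no gene of the table with a positive r did (0 of 13760). This alternative has fewer distinct arrangements, which limits how small a permutation p can be (9e-05 for ctrb1 before adjustment). Whether the passes were lost through that limit was not tested. Same-numbered libraries also deviated together between the VBA- groups (r = 0.0782 to 0.67) and in opposite directions between the cortisol groups (r = -0.625 to -0.449). Neither permutation kept these links. In the permutation of each group on its own, ela3l (p = 0.023, adjusted p = 0.091) and cpb1 (p = 0.15, adjusted p = 0.27) did not pass. Of all 13760 genes, 634 (4.61%) had a positive r that passed there, and 889 had a negative r that passed. The CPA1 copy had r = 0.985, CEL copy 1 had 0.967 and CEL copy 2 had 0.946, with rho of 0.989, 0.976 and 0.911 and an adjusted permutation p for r of 0.029 in each, or of 0.069 with the vehicle groups permuted alike. The median r with ctrl was 0.837 over the 7 other members and -0.05 over all genes, and the 28 pairs of members had a median of 0.845 with a range of 0.453 to 0.978.

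In VBA+ cortisol, the group with the smallest spread, not all members ordered the libraries as ctrl did. There ctrl was highest in replicate 1, cpa1 and ela3l in replicate 2, and cpb1 and ela2l in replicate 4. Over its 4 libraries, r with ctrl was 0.35 for cpa1, 0.0196 for cpb1 and -0.116 for ela2l. For the other members it ran from 0.872 (ela3l) to 0.99 (ctrb1). Leaving out the 2 libraries whose ctrl value lay farthest from its median, VBA+ cortisol replicates 1 and 2, left r between 0.506 (cpb1) and 0.973 (ctrb1). Leaving out replicate 3 of every group kept r at 0.969 for ctrb1, 0.911 for prss1, 0.909 for ela2, 0.727 for ela2l and 0.72 for cpa1, but took ela3l to 0.0846 and cpb1 to -0.222. The shared deviation of ela3l and cpb1 with ctrl thus rested on the replicate 3 libraries. Those of cpa1 and ela2l, with r of 0.815 and 0.837 over all libraries, weakened without them, and those of ctrb1, prss1 and ela2 changed less. The spread was also wide in the vehicle groups: the median SD of the members was 0.912 in VBA- vehicle and 0.673 in VBA+ vehicle libraries, against 0.195 and 0.154 over 13772 genes, and all 8 exceeded the 90th percentile of those genes in both vehicle groups. These genes were not matched to the members in abundance. In the cortisol groups 2 of 8 did so in VBA- and 3 of 8 in VBA+ libraries, with median SDs of 0.532 and 0.301.

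**Figure D3:**
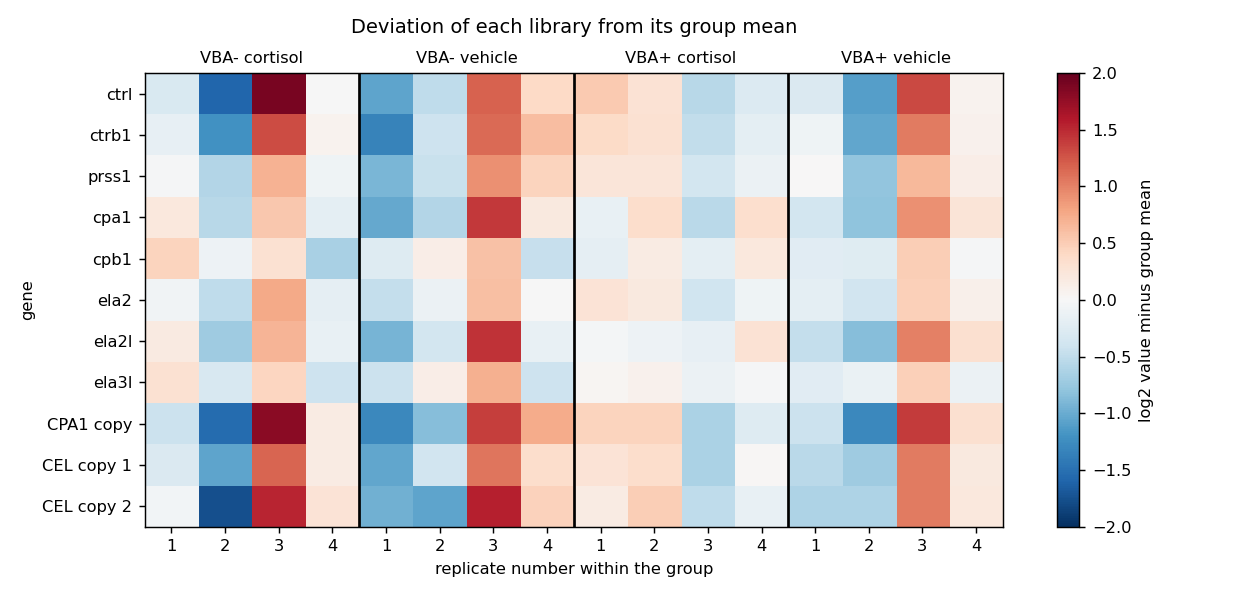
Rows are genes and columns the 16 libraries, and the colour gives the log2 value minus the mean of the library's group (red above, blue below). Most rows share their pattern over the 16 libraries, with ctrl and ctrb1 (r = 0.974) nearly alike and cpb1 (r = 0.474) the least like ctrl. Within VBA+ cortisol, cpa1 (r = 0.35), cpb1 (0.0196) and ela2l (-0.116) followed ctrl little or not at all.

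Among the 10 genes outside the 8 members whose log2 values followed ctrl most closely over the 16 libraries, groups included, were CEL copy 1 (r = 0.982), the CPA1 copy (0.981), CEL copy 2 (0.964), a row listed as CELA1 (ENSDARG00000017314, 0.947), ctrb.2 (0.937), amy2a (0.935), a row listed as FILIP1 (ENSDARG00000079634, 0.912), amy2al2 (0.906) and eif5a (0.902). The median r of all 13754 genes compared was -0.05, and the next gene after these 10 had 0.9. These correlations include the difference between VBA+ groups that picked ctrl.

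Other secretory products of acinar cells, 20 tested genes for further proteases, amylases, a phospholipase and granule proteins, mostly had differences of the same sign with more scatter. In VBA- larvae, 17 of 20 had a higher mean with cortisol (median 0.46), and none was called. The elastase gene cela1.4 averaged 6.60 in VBA- cortisol and 4.97 in VBA- vehicle (difference 1.63 ± 0.62), and amylase genes amy2a and amy2al2, which encode starch-splitting enzymes, differed by 0.65 ± 0.44 and 1.09 ± 0.60 (limma adjusted p = 1 for all 3). In VBA+ larvae, 8 of 20 were called higher, where 3.6% of all genes were, and none lower (median 0.82). The 3 called genes with the largest differences were cela1.4 (2.02 ± 0.44), amy2a (1.51 ± 0.27) and amy2al2 (1.28 ± 0.35). Over all 20 the differences ran from -1.1 to 3.08. This contrast picked ctrl, and amy2a and amy2al2 were among the 10 genes most like ctrl. These values are therefore given as a description, and nothing is read from the count. Between genotypes none of the 20 was called, with medians of -0.28 in vehicle and -0.46 in cortisol.

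The regulators and the secretory machinery had list medians nearer to 0, and the distance from the enzymes was not tested. Of 10 tested pancreatic transcription factor genes, among them ptf1a, nr5a2 and gata6, none was called in any of the 5 comparisons, and their medians with cortisol were 0.25 in VBA- and 0.37 in VBA+ larvae. For 23 genes of the endoplasmic reticulum, which folds and exports secretory proteins, the medians were -0.14 in VBA- and 0.03 in VBA+ larvae. In this list 2 of 23 genes were called lower with cortisol in VBA+ larvae, where 1003 of all 21686 genes were. These were manf, a secreted stress-response factor (-0.60 ± 0.15), and ssr3, a subunit of the translocon-associated complex (-0.50 ± 0.11). The VBA+ contrast picked ctrl, and nothing is read from this count. No call was made among 6 secretagogue and receptor genes, among them cckar, the receptor for cholecystokinin, whose medians were 0.06 in VBA- and 0.67 in VBA+ larvae.

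**Figure D4:**
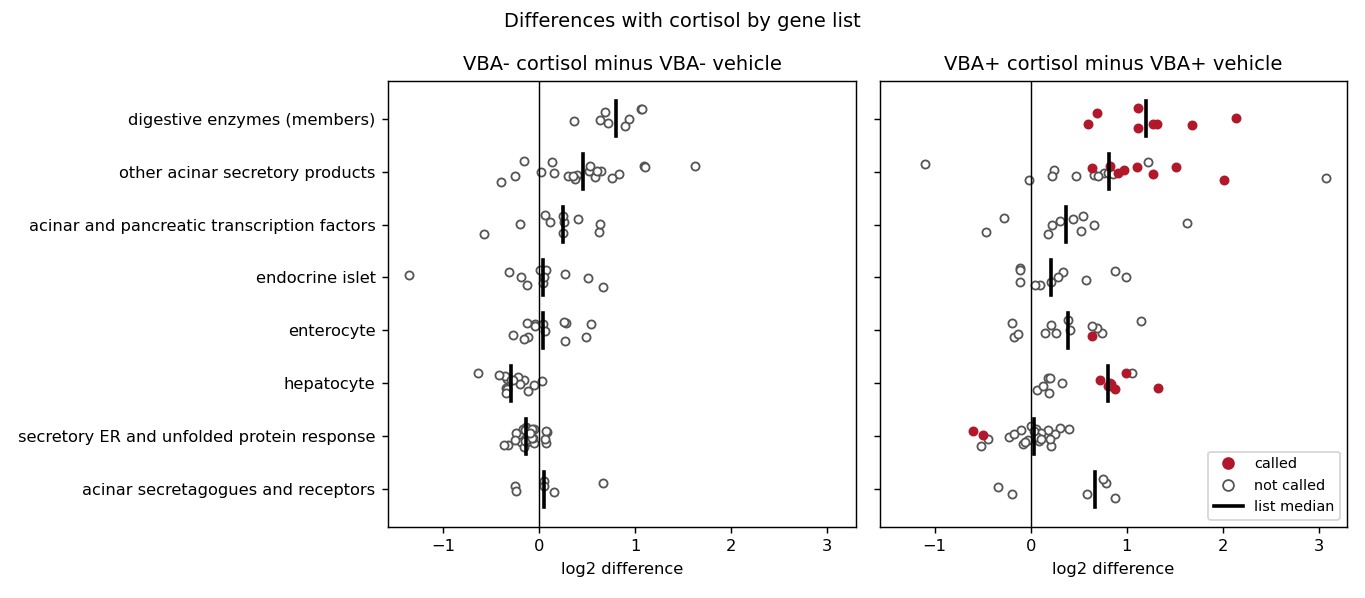
Each point is 1 tested gene, with its log2 difference of cortisol from vehicle on the x axis in VBA- (left) and VBA+ (right) larvae, gene lists down the page, list medians as black bars and called genes in red. In VBA- larvae no gene of any list is called and the enzyme members have a median of 0.81, and in VBA+ larvae called genes are found among the enzymes, other acinar products, hepatocyte, enterocyte and endoplasmic reticulum lists.

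Markers of neighbouring organs moved with the enzymes in some comparisons. All 15 tested hepatocyte genes had a higher mean with cortisol in VBA+ larvae (median 0.81). Of these, 6 were called higher, where 3.6% of all genes were. Among them were apobb.1, which encodes the lipoprotein scaffold (1.33 ± 0.32), and tfa, the plasma iron carrier transferrin (1.00 ± 0.27). This contrast picked ctrl, and hepatocyte deviations ran with those of ctrl, so nothing is read from the calls. The summed counts of the hepatocyte genes ranged from 16.18 to 16.55 on the log2 scale in VBA+ cortisol, against 15.22 to 15.98 in VBA+ vehicle libraries. In VBA- larvae the same list went the other way from the enzymes, with 14 of 15 means lower with cortisol (median -0.29, none called) and sums of 15.28 to 16.68 in cortisol, against 15.76 to 16.54 in vehicle libraries. In the vehicle comparison of genotypes 14 of 15 hepatocyte genes had higher means in VBA- larvae (median 0.67), while all 8 enzymes had lower means. Of the 15, ambp, a plasma protein precursor, was called higher (0.91 ± 0.14, limma adjusted p = 0.0461), as were 37 of all 21686 genes. The calls over all genes in this comparison ran from 1 to 63 when 1 library was left out. With cortisol in both genotypes 12 of 15 hepatocyte genes had lower means in VBA- larvae (median -0.31), as had 10 of 11 islet genes (median -0.32) and 9 of 13 enterocyte genes (median -0.17), and none was called. In the interaction all 15 hepatocyte genes were below 0, with a median of -1.06 beside -0.40 for the enzymes, and none was called, although 7 had an unadjusted p under 0.05. Of the hepatocyte markers, hp was under the filter on low values.

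Enterocyte markers (13 tested) had medians of 0.05 with cortisol in VBA- and 0.39 in VBA+ larvae. In VBA+ larvae 1 of 13, the gut transcription factor gene cdx1b, was called higher (0.64 ± 0.18), where 3.6% of all genes were. The VBA+ contrast picked ctrl, so nothing is read from this call. The summed counts of the enterocyte markers ranged from 14.33 to 15.04 in VBA- cortisol and 14.31 to 15.02 in VBA- vehicle, and from 14.54 to 15.06 in VBA+ cortisol and 14.37 to 14.95 in VBA+ vehicle libraries. Endocrine islet markers (11 tested) had medians of 0.04 in VBA- and 0.21 in VBA+ larvae, and none was called in any comparison. Deviations within groups also ran with those of ctrl in these lists, with a median r of 0.777 for enterocyte, 0.664 for hepatocyte, 0.473 for islet and 0.539 for the other acinar genes, against 0.107 for the endoplasmic reticulum genes. The part of liver, gut or islet RNA in the enzyme values was not tested.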

How the data were processed

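RNA of the 16 pools had been sequenced as paired-end reads. Per the labels and the study's methods, the authors trimmed reads (Trimmomatic 0.36 in the processing notes, another version in the methods), aligned them with STAR 2.6.1b to GRCz11 with Ensembl annotation, estimated gene counts with RSEM 1.3.0, and normalised them with EDASeq for GC content within and by full quantile between libraries. The deposited values are log2(normalised count + 0.1). All were whole counts once this was undone (within 0.01), in 1 distribution for all libraries, so depth is unknown and no count model was used.

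Genes with a mean of at least 5 normalised counts (21686) were compared with limma 3.58.1 (lmFit, eBayes with trend) in R 4.3.3, on the 8 libraries of each comparison and on 16 for the interaction, with Benjamini-Hochberg adjustment over all of them. A call needed a log2 difference of 0.5 or more in size, its SE under 1, an adjusted p no higher than 0.05 and a mean of 75 or more. For low genes a difference on this scale depends on the added 0.1 and on single counts. Fits were also run on simulated data with independent noise in each library. Those data lack the links between same-numbered libraries found here, so nothing is read from that run. The deposited steps of the shared distribution limit resolution to at most 0.067 log2 near the members.

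Member symbols were matched through a table of gene names and RefSeq synonyms, and cpa1 through the study's supplementary tables. Gene lists matched 22 of 38 symbols (other acinar products), 11 of 16 (transcription factors), 11 of 18 (islet), 13 of 18 (enterocyte), 16 of 16 (hepatocyte), 22 of 22 (endoplasmic reticulum) and 6 of 10 (secretagogues). Members and lists were chosen with earlier results of these data known. Named were all members, at most 3 called genes of each other list by size, the 10 genes most like ctrl among those with a mean of at least 75, and nr3c1, and 1 gene under this rule is not reported here. Correlations of deviations from group means used Python 3.11.15 and 100000 permutations within groups, with adjustment over all genes in place of the planned adjustment over the members. For VBA- against VBA+ in vehicle the deviations of same-numbered libraries correlated at 0.253, 0.212, 0.309 and 0.235 over 13772 genes, so those numbers were taken as pairs, from the data. Alternatives were another pseudocount, no filter on low values, no limit on the mean for a call, a replicate block, no trend, library weights, a term for replicates 1 and 2 against 3 and 4, a fit on 16 libraries and each library left out. Added after seeing the data were leaving out replicate 3 of every group, permuting both vehicle groups alike and adding the 3 rows listed as CPA1 or CEL. Promoter sequences were not used here.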

Additional observations from a re-analysis of the deposited data

Results flagged for a closer look

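Of 48 groups of 4 libraries examined (the 8 members, the 3 rows listed as CPA1 or CEL, and the mean of the members, in each of 4 groups), 1 held a library far from the other 3: ela3l in VBA+ vehicle, replicate 3, at a log2 value of 12.18, with a gap of 0.84 of the group's range to its nearest neighbour. Chance flags about 1 in 20 such groups.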

How the results depend on the processing

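For cortisol in VBA-, both genotype comparisons and the interaction, the median of the members kept its sign in all alternatives run. In each of them 0 members were called (limma adjusted p of the members 0.926 to 1 for cortisol in VBA-, 0.0753 to 0.985 for VBA- against VBA+ in vehicle, 0.157 to 0.954 in cortisol and 0.321 to 0.999 for the interaction). With 1 library left out, the median for VBA- against VBA+ in vehicle ran from -0.809 to -0.194, and that of the interaction from -0.6 to -0.122. Both thus crossed 0.5 in size, the limit used for a call. The calls for cortisol in VBA+ were not stable: of 8 called members, the replicate block left 0, a fit on all 16 libraries 0 and eBayes without trend 1, and leaving out 1 library left 1 to 8. The numbers do not pair the libraries there. The replicate block leaves the differences of these balanced groups as they are by construction (median of the members 0.806 for cortisol in VBA-), and it called no member in the 4 comparisons with a test. Of 5 members with an adjusted p of at most 0.05 for r with ctrl, 0 were left when both vehicle groups were permuted alike. That permutation has fewer distinct arrangements, which limits how small its p can be. The median r with ctrl was 0.727 without replicate 3 of every group. In the interaction cpb1 turned negative with library weights (-0.0982) and without replicate 3 of every group (-0.0231), and with 1 library left out it ranged from -0.0483 to 0.326. So did prss1 (-0.533 to 0.083), cpa1 (-0.545 to 0.266) and CEL copy 2 (-0.956 to 0.139) cross 0, and in the vehicle comparison of genotypes CEL copy 1 (-0.669 to 0.0367). Over all genes, the calls for VBA- against VBA+ in vehicle were 51, but 195 with the replicate block, 363 once replicates 1 and 2 were set against replicates 3 and 4 in the model, 16 in the fit on all 16 libraries, 8 without the filter, 1 without trend, 12 without replicate 3 of every group and 1 to 63 with a library left out. Those for cortisol in VBA+ were 1783, but 6 with the block, 21 on all 16 libraries, 619 without trend, 2770 with library weights, 983 without replicate 3 of every group and 414 to 2925 with a library left out. For cortisol in VBA- the count of 0 became 2 with that added model term and 5 on 16 libraries. For VBA- against VBA+ in cortisol it became 1 with the added term, 1 with weights, 10 on 16 libraries and 0 to 2 with a library left out. The interaction had 1 call, and 0 with the block, without the filter and without replicate 3 of every group. The causes were not tested. Depth is unknown, so no limit from counting can be given, and the 4 pools a group limit precision.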
